A study of Mus musculus with 21 samples.

Results

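The let-7 family of mature 5p miRNAs and miR-98-5p was followed in the developing mouse auditory system. The members were the 9 rows of the count table named mmu-let-7a-5p, mmu-let-7b-5p, mmu-let-7c-5p, mmu-let-7d-5p, mmu-let-7e-5p, mmu-let-7f-5p, mmu-let-7g-5p, mmu-let-7i-5p and mmu-miR-98-5p (written without the species prefix in most places), of 1647 mature miRNAs in all, and were chosen by name. Small RNA was sequenced from wild-type, untreated mice at embryonic day 16 (E16), at birth (P0) and at P16, after hearing onset. The cochlear libraries came from the sensory epithelium of C57BL/6JOlaHsd mice (2 libraries of E16, 4 of P0, 4 of P16). The libraries of the superior olivary complex (SOC), the brainstem region where input from both ears first converges, came from C57Bl6/J mice (4 libraries of E16, 4 of P0, 3 of P16). In both organs the tissue of several animals was pooled per sample, and the sexes were not separated.

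let-7 miRNAs are cut by Dicer from hairpin precursors, and in most hairpins the 5p strand is the one loaded into Argonaute proteins. The RNA-binding proteins Lin28a and Lin28b block this maturation in embryonic and progenitor cells, and mature let-7 accumulates as cells leave the cell cycle and differentiate. Known let-7 targets include Lin28 itself, Hmga2, Myc and Ras genes, and in the cochlea let-7 has been linked to the end of proliferation in prosensory cells.

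The mature sequences are shown because the members differ at so few bases that a read of 1 member can be close to several others. All 9 members matched an entry of RefSeq for GRCm38.p6, and each is 22 bases long. The seed, bases 2 to 8 from the 5′ end and the main determinant of target recognition, is printed in capitals and was the same in all 9.
mmu-let-7a-5p: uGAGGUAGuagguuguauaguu
mmu-let-7b-5p: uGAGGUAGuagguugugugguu
mmu-let-7c-5p: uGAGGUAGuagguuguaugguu
mmu-let-7d-5p: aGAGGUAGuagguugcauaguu
mmu-let-7e-5p: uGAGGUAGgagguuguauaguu
mmu-let-7f-5p: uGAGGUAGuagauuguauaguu
mmu-let-7g-5p: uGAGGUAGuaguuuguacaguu
mmu-let-7i-5p: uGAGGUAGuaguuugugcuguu
mmu-miR-98-5p: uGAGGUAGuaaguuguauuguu
Over the 36 pairs of members, the aligned sequences differed at 1 to 6 bases, with 4 pairs at 1 mismatch and 10 at 2. Counted from the 5′ end and with the base of let-7a-5p first, let-7c-5p differed from let-7a-5p by A19G, let-7e-5p by U9G and let-7f-5p by G12A alone. let-7b-5p differed by A17G and A19G and therefore lay 1 mismatch from let-7c-5p. let-7d-5p differed by U1A and U16C, and is the member whose first base is not U. let-7d-5p, let-7g-5p, let-7i-5p and miR-98-5p each lay at least 2 mismatches from every other member. The other miRNA of the table with this seed was let-7k, with 3 counts over all 21 libraries.

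The genes matched to the members lie on 7 chromosomes, and several share a host transcript. On chromosome 13 (GRCm38, minus strand) Mirlet7a-1, Mirlet7f-1 and Mirlet7d lie in an exon of the lincRNA gene 6720427I07Rik, with 261 bases between the hairpins of Mirlet7a-1 and Mirlet7f-1 and 1714 between those of Mirlet7f-1 and Mirlet7d. let-7d-5p itself is at chr13:48536078-48536099. On chromosome 15 Mirlet7c-2 and Mirlet7b lie in an exon of Lncppara, 621 bases apart, with let-7b-5p at chr15:85707325-85707346. A second let-7c gene, Mirlet7c-1 on chromosome 16, lies in an intron of Mir99ahg, the host gene that also carries miR-99a. Mirlet7f-2 and Mir98 lie 785 bases apart in an intron of Huwe1 on chromosome X. Mirlet7e is in an intron of Spaca6 (chromosome 17), Mirlet7g in an intron of Wdr82 (chromosome 9) and Mirlet7i in an exon of D630033A02Rik (chromosome 10). A count of let-7a-5p, let-7c-5p or let-7f-5p cannot be assigned to a single gene, since more than 1 hairpin gives the same mature sequence.

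The libraries held 124400 to 447419 counts in the cochlea and 8309669 to 18053698 in the SOC, so that 1 count stood for 2.24 to 8.04 CPM in the cochlea and for 0.0554 to 0.120 CPM in the SOC. RNA isolation kit and library kit differed between the organs and coincided with them, so levels in the 2 organs cannot be told apart from the kits, and only changes over time were compared between organs. The cochlear P16 replicate 2 stood apart, with a TMM factor of 0.648 against 0.983 to 1.08 in the other P16 libraries. In the SOC, E16 and P0 replicates 2 and 3 held 17.2% to 19.6% of their counts on miR-99b-5p, against 1.43% to 3.84% in the other SOC libraries (called set A below). SOC P0 replicate 4 and P16 replicates 2 and 3 held 0.277% to 0.322% of their counts on miR-191-5p, against 3.84% to 8.15% in the others (set C). The labels name no batch for these sets, E16 has no library of set C and P16 none of set A. Marker miRNAs are given as CPM of library totals, without TMM factors. Neural miRNAs (miR-124-3p, miR-9-5p, miR-128-3p, miR-138-5p and miR-218-5p, all 5 in the table) summed to 46473 to 115621 CPM in the SOC. In the cochlea they summed to 3887 to 4671 CPM at E16, 599.8 to 1339 at P0 and 751 to 1809.9 at P16. Of the 5, miR-138-5p alone had a higher cochlear mean at P16 (151 CPM) than at E16 (53.3 CPM). The hair cell miRNAs miR-96-5p, miR-182-5p and miR-183-5p summed in the cochlea to 69631 to 71872 CPM at E16, 31182 to 39320.1 at P0 and 10805 to 40102 at P16. In the SOC they summed to 97018 to 147946 CPM at E16 and 592 to 2901 CPM at P16. In the cochlea the 2 mesenchymal miRNAs in the table summed to 56953 to 63456 CPM at E16, 41232 to 72529.6 at P0 and 9952 to 11388 at P16. Nearly all of this was miR-214-3p (means 59116, 59142 and 9953 CPM), while miR-140-3p averaged 1089, 329.9 and 745 CPM. The 6 epithelial miRNAs summed to 18498 to 28045, 4754 to 7992 and 1587 to 6679 CPM at the 3 ages. Most of the E16 sum was miR-429-3p (means 19425, 3270.1 and 3517 CPM). miR-200c-3p averaged 3322, 2515 and 1181 CPM, and miR-205-5p, the only 1 of the 6 with a higher mean at P0 than at E16, 283, 412 and 188 CPM. The 2 oligodendrocyte miRNAs in the table summed to 191 to 534 CPM at P16 against at most 61.4 CPM before in the cochlea, and to 2921 to 6418 CPM at P16 against at most 541 CPM before in the SOC. Nearly all of the cochlear P16 sum was miR-338-3p (mean 411 CPM), while miR-219a-2-3p had 0 to 4 counts per library there (mean 6.93 CPM). In the SOC the epithelial sum went from 729.8 to 1468 CPM at E16 to 33.8 to 140.5 at P0, the mesenchymal sum from 629 to 2398 to 49.4 to 257, and the muscle sum from 96.9 to 276 to 9.65 to 28.2. Muscle miRNAs summed to 631 to 706 CPM in the cochlea at E16, 187 to 473 at P0 and 711 to 4487 at P16. Of these, miR-1a-3p held most, miR-206-3p averaged 72.7 CPM at E16 and 51.4 at P16, and miR-133a-3p was at 0 in every cochlear library. Cochlear P16 replicate 2 had the lowest P16 sums of hair cell miRNAs (10805 CPM, P16 median 33056) and epithelial miRNAs (1587 CPM, median 5839). The same held for its neural sum (751 CPM, median 1327) and muscle sum (711 CPM, median 3176), but not for its mesenchymal sum. The blood miRNAs in the table summed to 42.4 to 51.5 CPM at E16 and 76.1 to 198 at P16 in the SOC, and both blood miRNAs in the table were at 0 in the cochlea at P0 and P16. In these bulk samples a change in the share of a cell type and a change in RNA per cell cannot be told apart, and the part of such shifts in the results on let-7 was not tested.

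In the cochlea the family took a growing part of all miRNA counts. It held 4.25% and 4.64% of the counts in the 2 E16 libraries and 5.38% to 6.93% in the 4 P0 libraries. At P16 it held 11.2%, 16.4% and 18.8% in replicates 1, 3 and 4, but 3.35% in replicate 2 (95% Wilson interval 3.27% to 3.43%, counting error only). Every P0 library was thus above both E16 libraries, and P16 replicate 2 was below all other cochlear libraries. After TMM normalisation the 9 members summed to 33972 ± 2931 CPM at E16 (SD, n = 2), 68183 ± 5404 at P0 (n = 4) and 124134 ± 54644 at P16 (n = 4). In the SOC the family made up a small part of the counts at each age, from 0.0549% to 0.119% at E16, 0.0819% to 0.195% at P0 and 0.201% to 0.365% at P16. The corresponding sums were 830.3 ± 203 CPM (n = 4), 1165 ± 573 (n = 4) and 2985 ± 533 (n = 3), and all 3 P16 libraries were above all E16 and P0 libraries.

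**Figure D1:**
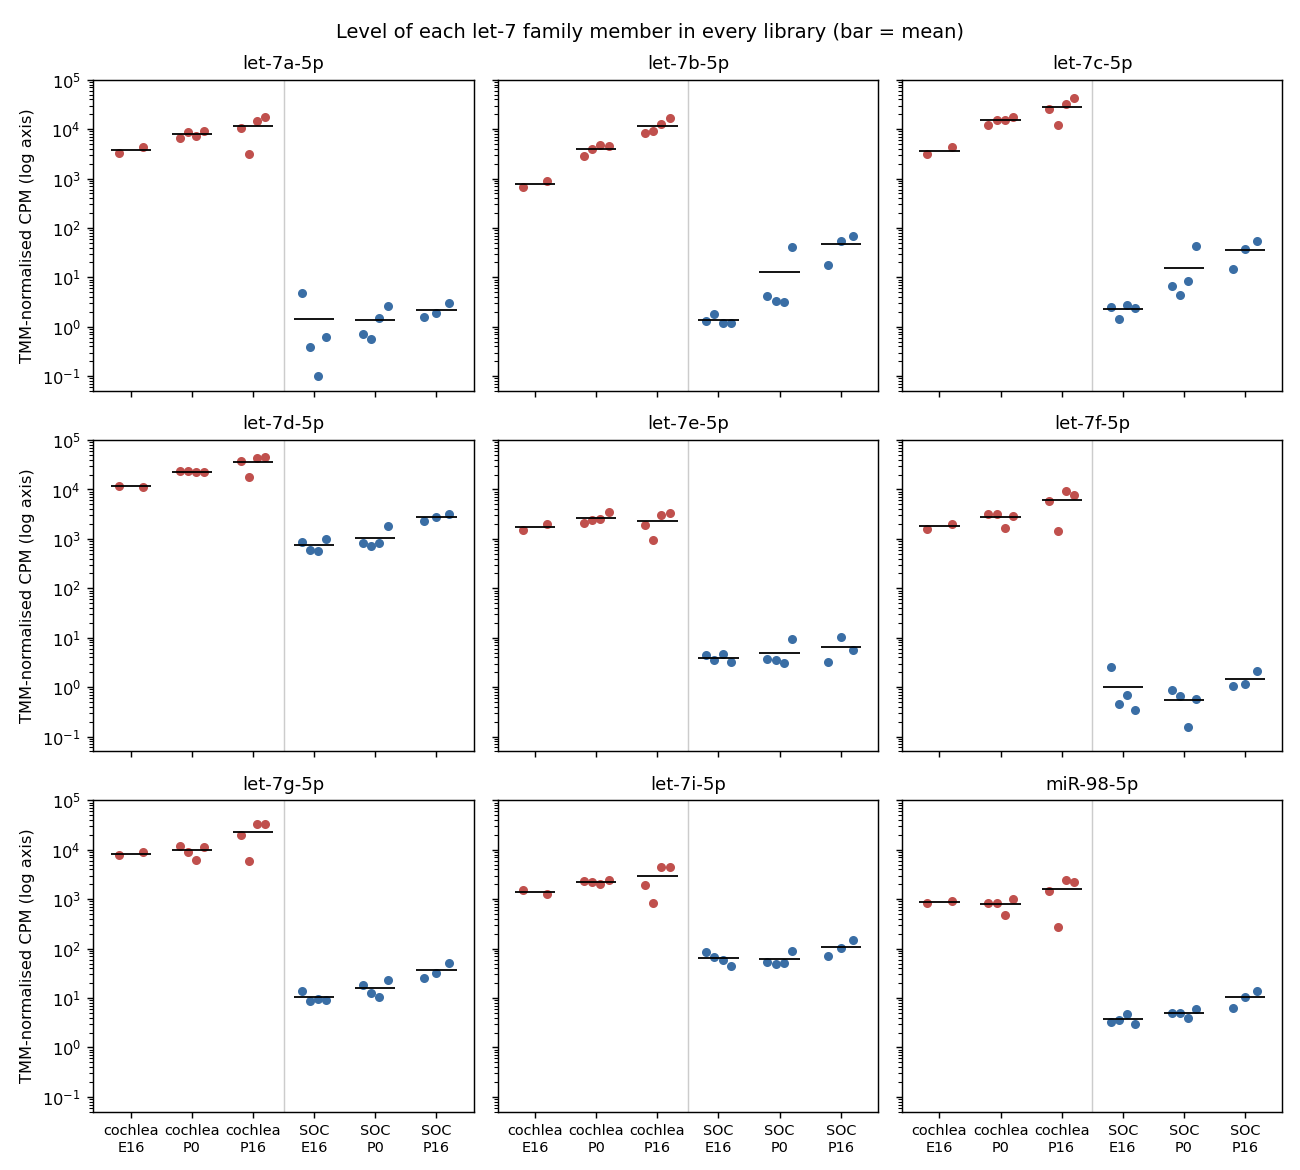
TMM-normalised CPM (log axis) of each member in each of the 21 libraries, with cochlear libraries in red, SOC libraries in blue and a bar at each group mean. let-7b-5p rose from 794 to 11824 CPM in the cochlea and from 1.39 to 46.7 CPM in the SOC between E16 and P16, and the low point among the cochlear P16 libraries is replicate 2 for all members but let-7b-5p.

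The make-up of the family was not alike in the libraries of the organs, a difference that cannot be told apart from the kits. The mature miRNAs have the same length, so no length correction was made between them, and differences in capture between their sequences were not tested. In the cochlea at E16, let-7d-5p held 34.2% of the family counts on average, let-7g-5p 24.5%, let-7a-5p 11.0% and let-7c-5p 10.8%, and the other 5 members between 2.33% (let-7b-5p) and 5.29% (let-7f-5p). By P16 let-7c-5p held 22.9% and let-7b-5p 10.8%, while let-7e-5p had gone from 5.07% to 1.85% and let-7i-5p from 4.25% to 2.19%. In the SOC let-7d-5p alone held 88.9% of the family counts at E16, 90.1% at P0 and 92.0% at P16. let-7i-5p came next with 8.11%, 5.45% and 3.55%, and each of the other 7 members stayed at or below 1.49% on average. let-7a-5p had only 1 to 81 counts per SOC library, in libraries of at least 8309669 counts, and let-7f-5p 2 to 44. How reads matching more than 1 member were assigned is not given in the sources used here, and its part in these shares was not tested.

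**Figure D2:**
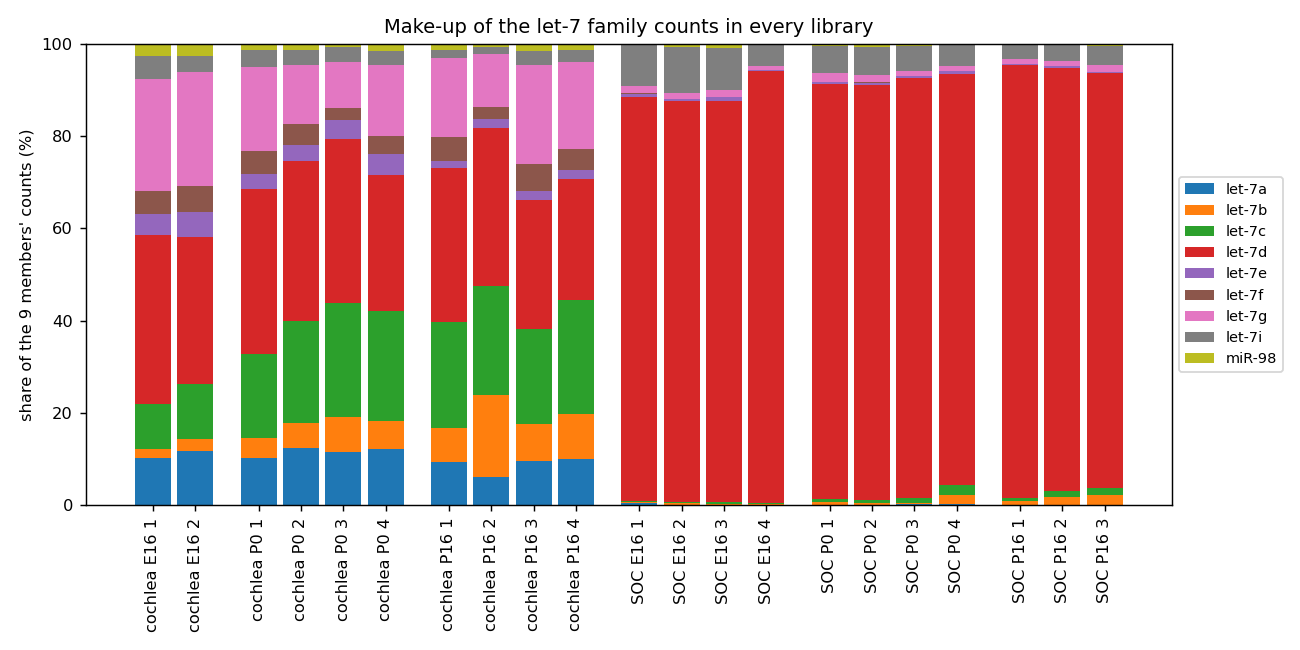
Share (%) of each member in the summed counts of the 9 members, 1 bar per library. let-7d-5p fills 88.9% to 92.0% of the SOC bars on average per age, whereas in the cochlea the parts of let-7b-5p and let-7c-5p widen from E16 to P16.

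Across the ages of the cochlea, the members that were DE all rose. A miRNA was called DE when its edgeR FDR was under 0.05 over all miRNAs tested in the organ, its fold change was over 1.5 and its TMM-normalised CPM did not overlap between the libraries of the compared ages. At P0 vs E16, 3 of 9 members were induced (let-7a-5p, let-7b-5p and let-7c-5p) and 0 repressed, where 7.81% of the 896 miRNAs tested were called higher and 24.4% called in either direction. At P16 vs E16, 3 of 9 were induced (let-7b-5p, let-7c-5p and let-7d-5p), against 10.9% of all miRNAs called higher and 29.6% called in all. At P16 vs P0 let-7b-5p alone was induced, against 3.91% called higher and 10.5% called in all. The median log2 fold change of the 9 members was 0.66, 1.62 and 0.90 in the 3 comparisons, beside 0.00, -0.09 and 0.05 over all miRNAs tested. Scaling by library totals without TMM factors lowered the median of all miRNAs to -0.38 at P0 vs E16 and -0.58 at P16 vs E16, and that of the members to 0.20 and 1.25.

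In the SOC the members called DE rose as well. In the main fit, which does not pair libraries, 2 of 9 members were induced at P0 vs E16 (let-7b-5p and let-7c-5p) and 0 repressed. Of the 694 miRNAs tested, 2.45% were called higher there and 6.63% in all. With the replicate number as a block, which pairs the SOC libraries of E16 and P0, 0 of 9 were called there (6.34% of all miRNAs). The log2 fold changes were then 2.16 for let-7b-5p (FDR = 0.117) and 2.14 for let-7c-5p (FDR = 0.0581). Set A has the same replicate numbers at E16 and P0, and the part of the sets in the results with the block was not tested. The same block left 5 of 9 called at P16 vs E16, with 43.8% of all miRNAs called. The P16 libraries did not pair by number, so no conclusion is drawn from the block there. Without the block, 5 of 9 were induced at P16 vs E16 (let-7b-5p, let-7c-5p, let-7d-5p, let-7g-5p and miR-98-5p) and 0 repressed, against 21.2% called higher and 41.2% in all. At P16 vs P0 let-7d-5p alone was called, against 8.07% called higher and 16.1% in all. The median log2 fold change of the members was 0.43, 1.48 and 1.16, beside 0.17, 0.08 and -0.15 over all miRNAs tested. The comparisons that share E16 or P16 libraries are not independent of each other.

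**Figure D3:**
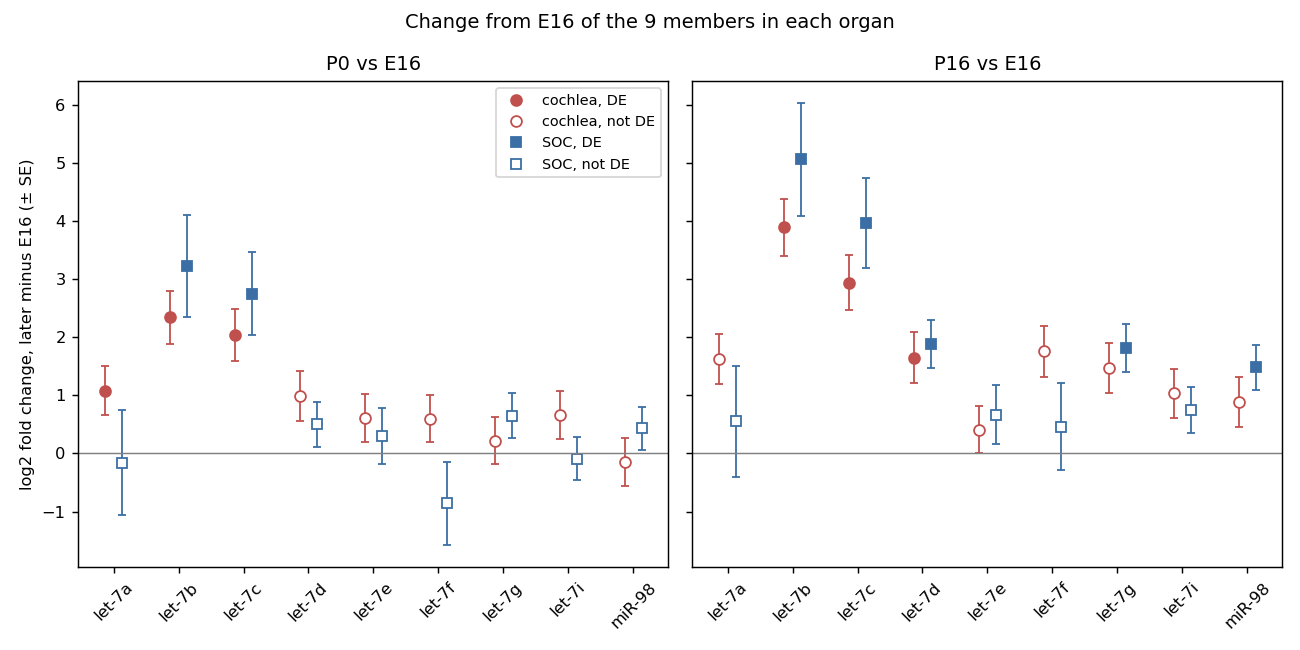
Log2 fold change from E16 with its standard error for each member at P0 (left) and P16 (right), cochlea as red circles and SOC as blue squares, filled where the member was DE. With all libraries let-7b-5p and let-7c-5p have the highest values in both organs and both panels, up to 5.06 for let-7b-5p in the SOC at P16.

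mmu-let-7b-5p, the member transcribed beside let-7c-2 from Lncppara, had the highest fold changes from E16 of the family in both organs in the fits with all libraries. In the SOC at P0 vs E16, let-7c-5p was the higher of the pair after adjustment for the library set (1.71 against 1.63) and without P0 replicate 4 (1.59 against 1.42). In the cochlea its level was 678 and 910.0 CPM at E16, then 2819, 3891, 4816 and 4558 CPM in P0 replicates 1 to 4, and 8463, 9268, 12460.1 and 17104 CPM in the P16 replicates. The 3 ages did not overlap, and even P16 replicate 2, low for the other members, lay above every P0 library. It changed by 2.34 ± 0.452 log2 units (SE) at P0 vs E16 (edgeR, FDR = 4.50e-06), 3.89 ± 0.495 at P16 vs E16 (FDR = 2.23e-13) and 1.56 ± 0.334 at P16 vs P0 (FDR = 6.04e-05). An exact two-sided permutation test over libraries gave p = 0.0667 for P0 vs E16 and for P16 vs E16, the smallest that 2 against 4 libraries allow, and p = 0.0286 for P16 vs P0, the smallest for 4 against 4.

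In the SOC let-7b-5p was scarce at E16, with 12 to 24 counts per library. Its level was 1.29, 1.85, 1.20 and 1.22 CPM at E16, 4.25, 3.33, 3.13 and 41.6 CPM at P0, and 17.4, 53.3 and 69.4 CPM at P16. E16 lay below all later libraries, but P0 replicate 4 stood at the level of P16 replicates 2 and 3, the libraries of set C. It changed by 3.22 ± 0.879 log2 units at P0 vs E16 (FDR = 0.0461), 5.06 ± 0.969 at P16 vs E16 (FDR = 0.00177) and 1.84 ± 0.857 at P16 vs P0 (FDR = 0.140). After adjustment for the library set these were 1.63 (FDR = 0.00395), 2.97 (FDR = 3.79e-05) and 1.34. The sets were defined from the counts of these same libraries, and P0 replicate 4 is the only P0 library of set C. The smaller FDRs are therefore not independent support. Without that library the change at P0 vs E16 was 1.42 (FDR = 0.101). Within set A the P0 mean was 3.23 CPM against 1.53 at E16 (2 libraries each), a log2 ratio of 1.08, and within the remaining libraries, set B, the single P16 library had 17.4 CPM against a mean of 1.25 in the 2 E16 libraries, a log2 ratio of 3.80. From P0 to P16 the log2 ratio was 0.56 within set C (mean 61.4 CPM in 2 libraries against 41.6 in 1). Within set B it was 2.03, with 1 library of each age.

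mmu-let-7c-5p followed the same course at a higher level in the cochlea. It had 3085 and 4289.5 CPM at E16, 11980.4, 15468, 15449 and 17794 at P0, and 25989.8, 12170.4, 32528 and 42764 at P16. Both E16 libraries lay below all later ones, whereas P16 replicate 2 fell within the range of P0. It changed by 2.04 ± 0.448 log2 units at P0 vs E16 (FDR = 7.41e-05), 2.94 ± 0.473 at P16 vs E16 (FDR = 1.10e-08) and 0.90 ± 0.333 at P16 vs P0 (FDR = 0.0488, not DE because the libraries overlapped). In the SOC let-7c-5p had 2.52, 1.47, 2.70 and 2.43 CPM at E16, 6.83, 4.44, 8.38 and 42.2 at P0, and 15.0, 37.6 and 55.1 at P16. P0 replicate 4 was again far above the other P0 libraries and within the range of P16. The changes were 2.75 ± 0.719 at P0 vs E16 (FDR = 0.0429) and 3.97 ± 0.776 at P16 vs E16 (FDR = 0.00198), or 1.71 and 2.28 after adjustment for the library set.

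mmu-let-7d-5p, the member with the highest level in both organs, had smaller fold changes than let-7b-5p and let-7c-5p. In the cochlea it had 11671 and 11464 CPM at E16, 23223, 24156, 22332 and 22147 at P0, and 37957, 17742, 44025 and 45811 at P16. All later libraries were above E16, and without P16 replicate 2 the P16 libraries would all be above P0. It changed by 0.99 ± 0.427 log2 units at P0 vs E16 (FDR = 0.0709) and 1.65 ± 0.442 at P16 vs E16 (FDR = 0.00116). In the SOC its level was 850.4, 583, 559 and 974 CPM at E16, 835, 714, 839.5 and 1804 at P0, and 2278, 2804 and 3132 at P16. P16 lay above all earlier libraries and P0 overlapped with E16. The change was 0.50 ± 0.385 at P0 vs E16 (not DE), 1.88 ± 0.417 at P16 vs E16 (FDR = 0.00433) and 1.39 ± 0.414 at P16 vs P0 (FDR = 0.0378). After adjustment for the set the last 2 were 1.24 (FDR = 0.000645) and 0.95 (FDR = 0.00498).

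mmu-let-7a-5p and let-7f-5p, which have genes beside Mirlet7d on chromosome 13 and each come from more than 1 hairpin, were abundant in the cochlea. let-7a-5p had 3227 and 4258 CPM at E16, 6611 to 9155 CPM at P0, and 10549, 3097, 14956 and 17468 CPM at P16. P0 was above E16 (log2 fold change 1.08 ± 0.420, FDR = 0.0432), and at P16 replicate 2 alone was below E16, so that the change of 1.62 ± 0.433 (FDR = 0.00113) was not DE by the overlap criterion. let-7f-5p had 1582 and 2027 CPM at E16, 1676 to 3204 at P0, and 5713, 1424, 9333 and 7909 at P16, with a change of 1.76 ± 0.436 at P16 vs E16 (FDR = 0.000390) that again overlapped through replicate 2. In the SOC these 2 members lay near the limit of counting. let-7a-5p had 81 counts in E16 replicate 1 and 1 to 7 in the other E16 libraries, and its changes of -0.16 ± 0.903 at P0 and 0.55 ± 0.962 at P16 were not DE. Without E16 replicate 1 the change at P16 vs E16 was 2.53 (FDR = 0.0271) and was called. let-7f-5p had 4 to 44, 2 to 19 and 11 to 22 counts at the 3 ages, and its change of 0.46 ± 0.745 at P16 vs E16 was not DE (FDR = 0.634).

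mmu-let-7g-5p, encoded in Wdr82, was the member with the second-highest level in the cochlea at E16. It had 7774 and 8907 CPM at E16, 6222 to 11948 at P0, and 19552, 5883, 33855 and 33034 at P16. P0 spanned the E16 values, with a log2 fold change of 0.22 ± 0.406 (FDR = 0.727). The change from P0 to P16 was 1.25 ± 0.334 (FDR = 0.00233), with overlap through P16 replicate 2. In the SOC let-7g-5p had 14.2, 8.64, 9.39 and 9.12 CPM at E16, 18.6, 12.8, 10.6 and 22.9 at P0, and 25.3, 32.3 and 51.1 at P16. The P16 libraries lay above all others, with a change of 1.81 ± 0.413 at P16 vs E16 (FDR = 0.00483), or 1.17 after adjustment for the set (FDR = 0.00845).

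mmu-miR-98-5p, which carries another name but the same seed, was the member with the second-lowest level in the cochlea at E16 and the lowest at P16. It had 839 and 913 CPM at E16, 475 to 997 at P0, and 1489.5, 280.1, 2483 and 2259.7 at P16. It changed by -0.14 ± 0.412 log2 units at P0 vs E16 (FDR = 0.849) and 1.03 ± 0.343 at P16 vs P0 (FDR = 0.0223), the latter with overlap through P16 replicate 2. In the SOC it had 3.28, 3.63, 4.80 and 3.04 CPM at E16, 5.06, 4.91, 3.92 and 5.93 at P0, and 6.40, 10.6 and 13.9 at P16. P16 lay above all earlier libraries, and the change at P16 vs E16 was 1.48 ± 0.392 (FDR = 0.0103), or 1.07 after adjustment for the set (FDR = 0.0283).

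mmu-let-7e-5p and let-7i-5p were not DE in any comparison. let-7e-5p, from the Spaca6 intron it shares with miR-99b and miR-125a, had 1484 and 1975 CPM at E16, 2118 to 3472 at P0 and 965 to 3323 at P16 in the cochlea, with a log2 fold change of 0.41 ± 0.410 at P16 vs E16 (FDR = 0.430). In the SOC it had 3.21 to 4.70, 3.13 to 9.30 and 3.20 to 10.1 CPM at the 3 ages, which overlapped throughout. let-7i-5p had 1560.3 and 1301 CPM at E16, 2055 to 2409 at P0 and 825 to 4507 at P16 in the cochlea, and its change of 1.04 ± 0.422 at P16 vs E16 (FDR = 0.0439) overlapped through P16 replicate 2. In the SOC, where it was the member with the second-highest level, let-7i-5p had 45.2 to 86.2, 48.1 to 90.7 and 72.5 to 147 CPM, and the change of 0.75 ± 0.397 at P16 vs E16 was not DE (FDR = 0.145).

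Single libraries decided several of these calls. Without cochlear P16 replicate 2, 8 of 9 members were DE at P16 vs E16, all but let-7e-5p (0.74 ± 0.322, FDR = 0.0711), and 7 of 9 at P16 vs P0, all but let-7e-5p and let-7i-5p. Of all miRNAs tested, 31.3% and 15.5% were called in these 2 comparisons, against 29.6% and 10.5% with all libraries. In that fit let-7a-5p changed by 2.01 ± 0.304, let-7f-5p by 2.15 ± 0.333, let-7g-5p by 1.86 ± 0.302, let-7i-5p by 1.42 ± 0.334 and miR-98-5p by 1.31 ± 0.354 at P16 vs E16. At P0 vs E16 let-7d-5p joined the 3 induced members (0.98 ± 0.248, FDR = 0.00173), with 29.2% of all miRNAs called. The left-out library is in neither group there and enters through the shared filter, TMM factors, dispersion and FDR. let-7d-5p was also called there without P16 replicate 1 (FDR = 0.0369). Without SOC P0 replicate 4, let-7b-5p changed by 1.42 ± 0.482 (FDR = 0.101) and let-7c-5p by 1.59 ± 0.476 (FDR = 0.0686) at P0 vs E16, so that 0 of 9 members were DE there, while 6 of 9 were DE at P16 vs P0. The shares of all miRNAs called were then 6.52% and 35.9%, against 6.63% and 16.1% with all libraries. Both calls at P0 vs E16 were also lost without any of the 4 E16 libraries or P16 replicate 2, and 1 of them without P0 replicate 3 (let-7c-5p) or P16 replicate 3 (let-7b-5p), though the changes stayed between 2.58 and 3.37 log2 units. The call of let-7d-5p at P16 vs P0 was lost without any of 7 libraries, E16 replicates 2 and 3, P0 replicates 1 to 3 and P16 replicates 2 and 3 (FDR = 0.0503 to 0.0985), while its fold change stayed between 1.24 and 1.47 log2 units. Without P16 replicate 1, 5 of 9 members were called there, with 31.5% of all miRNAs called. In the cochlea, let-7a-5p at P0 vs E16 lost its call without either E16 library or P0 replicate 2, 3 or 4 (FDR = 0.0534 to 0.281), and let-7d-5p at P16 vs E16 without E16 replicate 2 (1.47, FDR = 0.0592). Without the 4 libraries of set A, 0 members were DE at P0 vs E16, where 0 of all 660 miRNAs tested were called, though the changes were 4.11 ± 1.17 for let-7b-5p and 3.24 ± 0.990 for let-7c-5p. At P16 vs E16, 2 were DE, let-7b-5p (5.14 ± 1.20) and let-7c-5p (3.78 ± 0.982), with 15.8% of all miRNAs called, whereas let-7d-5p (1.54 ± 0.520), let-7g-5p (1.58 ± 0.560) and miR-98-5p (1.64 ± 0.552) were not. The 5 calls at P16 vs E16 in the SOC held whichever single library was left out, and a sixth was added by leaving out E16 replicate 1 (let-7a-5p) or P16 replicate 1 (let-7i-5p, 1.09, FDR = 0.0358).

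**Figure D4:**
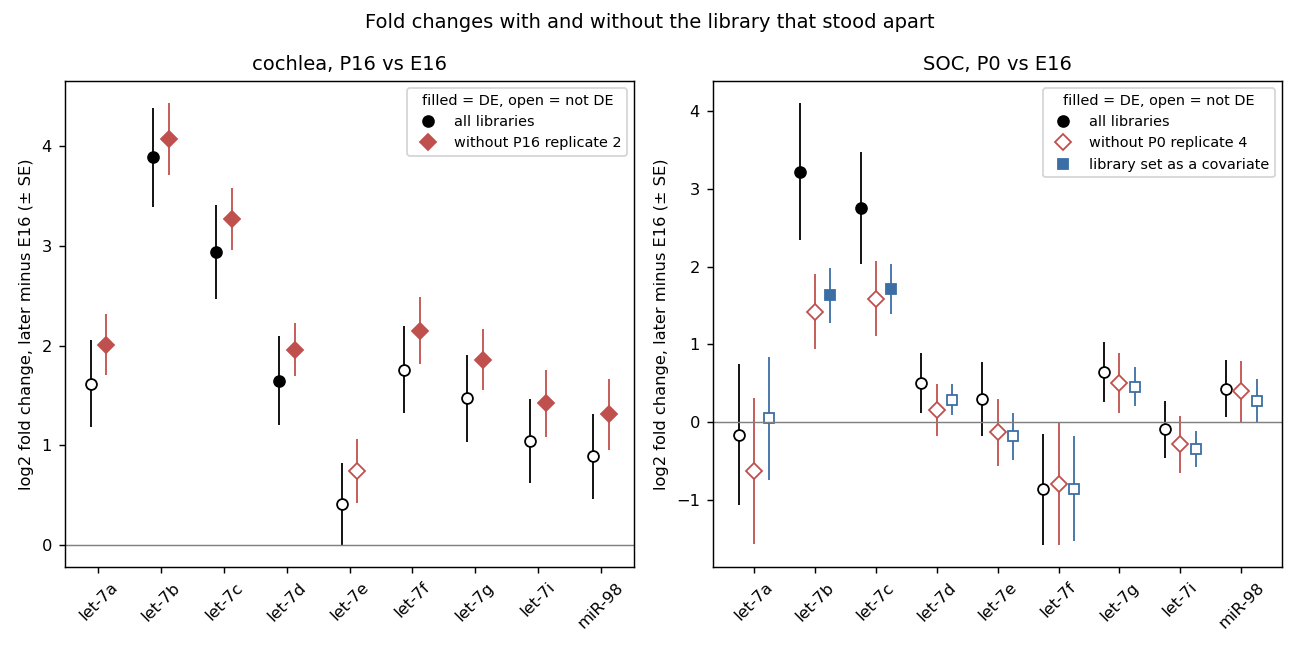
Log2 fold change with its standard error for each member, in the cochlea at P16 vs E16 (left) and in the SOC at P0 vs E16 (right), with all libraries (black) and without the library that stood apart (red diamonds), and in the SOC also after adjustment for the library set (blue squares). Filled symbols are DE: in the cochlea 8 members are filled without P16 replicate 2 against 3 with it (31.3% and 29.6% of all miRNAs called), and in the SOC 0 without P0 replicate 4 against 2 with it (6.52% and 6.63%). The fits shown do not use the replicate block.

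Whether the change over time differed between the organs was tested as the organ by time interaction in 1 edgeR model of all libraries, over the 545 miRNAs tested in both organs. For 0 of 9 members was the difference called in any of the 3 comparisons, where the share of all miRNAs called was 11.9% at P0 vs E16, 16.9% at P16 vs E16 and 6.42% at P16 vs P0. 0 members had an unadjusted p under 0.05, and DESeq2 also called 0 in each, where its share of all miRNAs called is not given here. For let-7b-5p the difference, SOC minus cochlea, was 0.73 ± 0.981 log2 units at P0 vs E16 (FDR = 0.627) and 1.03 ± 1.01 at P16 vs E16 (FDR = 0.552). For let-7d-5p it was 0.10 ± 0.637 at P16 vs E16 (FDR = 0.943). These standard errors leave room for differences of over 1 log2 unit, and adjustment for the library set turned the sign for let-7b-5p, to -0.87 at P0 vs E16 and -1.19 at P16 vs E16.

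The other strand of the same hairpins was counted in the same libraries, and the balance of the 2 arms set the organs apart for some members. The 5p arm held a median of 71.3% of both arms' counts for let-7b in the cochlea (56.6% to 86.8% over 10 libraries) and 2.68% in the SOC (1.29% to 33.1% over 11). For let-7e the medians were 86.0% and 8.46%, for let-7i 96.9% and 72.1%, and for miR-98 89.8% and 64.9%. For let-7g the 5p arm held 99.8% or more in each cochlear library and a median of 65.2% in the SOC. let-7d showed the reverse order, with a median of 50.9% in cochlear libraries against 61.1% in SOC libraries, and its ranges overlapped. The organs did not overlap for let-7b and let-7g, nor for let-7i. Since organ and kits coincide, these differences cannot be told apart from the kits. The 5p counts also depend on how reads matching more than 1 member were assigned, which is not given, and its part in the arm shares was not tested.

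Within the SOC the arm balance of 4 of the 6 hairpins moved with the library sets. For let-7e the 5p arm held 59.4% to 65.6% in the 3 libraries of set C and 7.02% to 12.2% in the other 8. For let-7b it held 20.4% to 33.1% in set C and 1.29% to 5.60% in the others. For let-7d it held 84.1% to 88.8% against 45.2% to 72.8%, and for miR-98 86.4% to 98.0% against 45.9% to 70.8%. let-7i did not follow the sets (71.5% to 74.0% in set C, within 62.7% to 82.6% in the others), and for let-7g the sets overlapped (74.3% to 83.8% against 52.3% to 79.9%). For the first 4 hairpins P0 replicate 4 sat with P16 replicates 2 and 3 in this respect and not with the other P0 libraries, and the part of this in the rise of let-7b-5p was not tested. The 3p strand of let-7b, let-7b-3p, rose with its partner, from a TMM-normalised level of 345 ± 51.0 CPM at E16 (n = 2) to 4566 ± 2115 at P16 (n = 4) in the cochlea, a log2 fold change of 3.73 ± 0.494 (FDR = 2.11e-12). In the SOC it rose from 83.6 ± 11.6 CPM (n = 4) to 233 ± 52.7 (n = 3), a change of 1.48 ± 0.335 (FDR = 0.00471). Of the 10 3p arms in the table, 9 were tested in each organ: 2 rose and 2 fell at P16 vs E16 in the cochlea, where 10.9% of all miRNAs tested were called higher and 18.6% lower, and 1 rose and 1 fell in the SOC, where these shares were 21.2% and 20.0%.

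**Figure D5:**
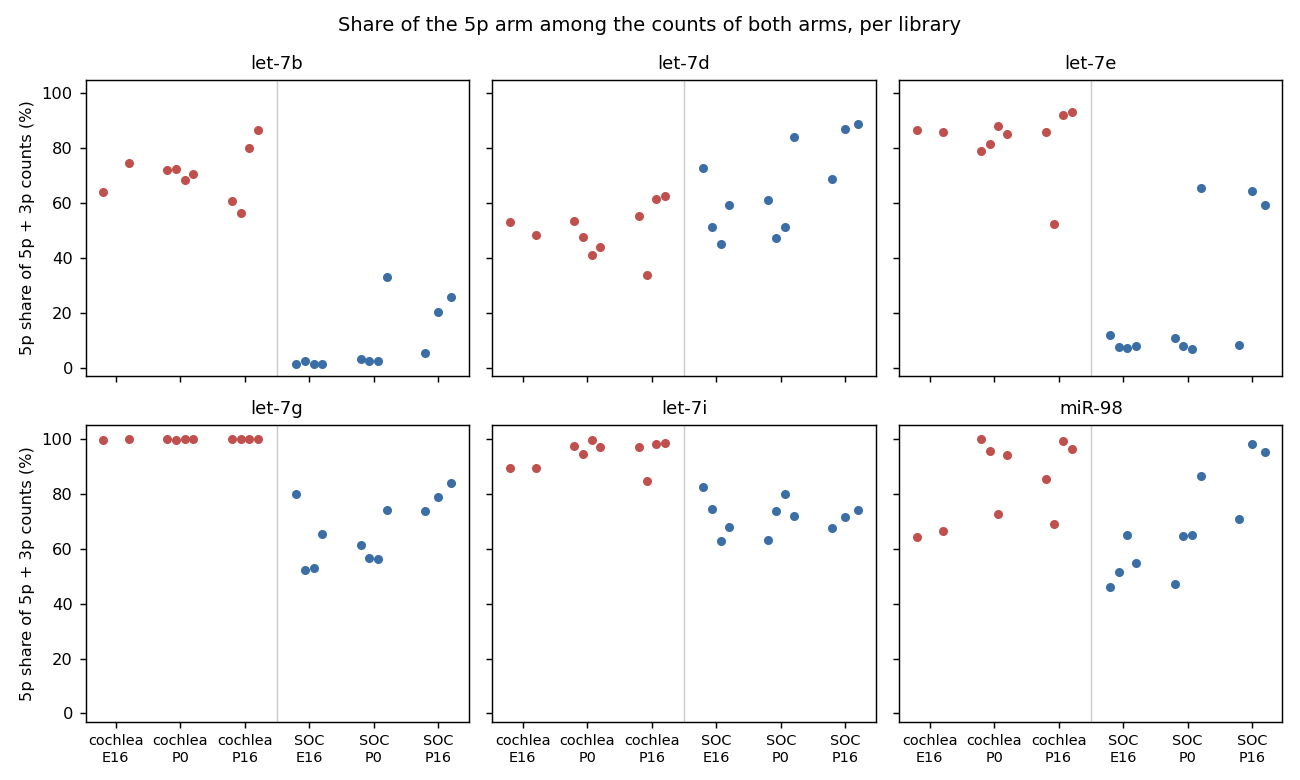
Share (%) of the 5p arm in the summed 5p and 3p counts of 6 hairpins, 1 point per library, cochlea in red and SOC in blue. For let-7b and let-7e the SOC points at 20.4% or more are P0 replicate 4 and P16 replicates 2 and 3.

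The miRNAs transcribed with let-7 genes were compared in the same way. Of the 5 partners (miR-99a-5p, miR-99b-5p, miR-100-5p, miR-125a-5p and miR-125b-5p), 2 rose in the cochlea at P16 vs E16, where 10.9% of all miRNAs tested were called higher. These were miR-125a-5p (log2 fold change 1.51 ± 0.480, FDR = 0.00749) and miR-125b-5p (2.23 ± 0.485, FDR = 4.13e-05). In the SOC, where 20.0% of all were called lower, 3 partners fell, miR-99a-5p, miR-99b-5p and miR-100-5p. Of these, miR-99a-5p and miR-100-5p lay near the limit of counting. They had 8 to 97 and 13 to 52 counts per SOC library at E16, and 2 to 6 and 5 to 9 at P16. miR-99b-5p, which defined set A, had a TMM-normalised level of 117007 ± 101285 CPM at E16 (n = 4) and 16916 ± 2969.6 at P16 (n = 3) in the SOC, while let-7e-5p from the same transcript had 3.97 ± 0.740 and 6.34 ± 3.47 CPM. The E16 mean of miR-99b-5p rested on the 2 libraries of set A, with 17.4% and 18.4% of their counts on it against 2.60% and 3.63% in the other E16 libraries, and P16, which has no library of set A, held 1.43% to 2.24%.

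Over the libraries of each organ the members moved together to different degrees. The Pearson correlation of log2 CPM between 2 members, a description over libraries that share age and depth, was 0.30 to 0.98 (median 0.81, 36 pairs) over the 10 cochlear libraries and 0.29 to 0.97 (median 0.69) over the 11 SOC libraries. In the cochlea let-7f-5p and let-7g-5p, from different chromosomes, had the highest value (0.98), and let-7b-5p with let-7e-5p or miR-98-5p the lowest (0.30). In the SOC let-7b-5p and let-7c-5p had the highest (0.97), and the values of let-7f-5p with other members reached no more than 0.71. Among the other miRNAs averaging at least 100 CPM, the course of the 9 members' mean was most like that of miR-382-5p (r = 0.96), miR-30b-3p (0.90), miR-30c-1-3p (0.84), miR-30a-3p (0.79) and miR-342-5p (0.77) in the cochlea, out of 234 candidates. In the SOC it was most like miR-497a-5p (0.98), miR-380-3p (0.97), miR-138-5p (0.94), miR-666-3p (0.93) and miR-433-5p (0.91), out of 174.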

How the data were processed

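Small RNA was sequenced in 21 libraries of mouse cochlea and SOC. The authors deposited raw counts per mature miRNA, with miRBase names. Per the study's methods, reads were aligned with Bowtie to the mouse miRNAs of MirGeneDB, whereas the submitters' processing notes name Bowtie2 2.2.5, DESeq2 and mm10. How reads matching several miRNAs were counted is not given in the sources used here.

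Tests were run per organ on miRNAs that exceeded 1 CPM in 2 or more libraries of an age (896 in the cochlea, 694 in the SOC, all 9 members in both), with edgeR 4.0.16 in R 4.3.3, using TMM factors and the quasi-likelihood F test. FDR is the Benjamini-Hochberg value over all miRNAs tested. The SE of a log2 fold change was taken as its size over the square root of F. Single-member p-values came from exact two-sided permutation tests on log2 values with 0.5 counts added. Correlations and the likeness rule, which named the 5 most similar miRNAs per organ, were computed on log2 CPM (prior count 2). Sequences came from RefSeq (GRCm38.p6) and gene positions from GENCODE for GRCm38, the build called mm10.

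Same-numbered SOC libraries of E16 and P0 moved the same way around their group means in all 4 pairs (r = 0.25 to 0.49). The numbers were therefore treated as possible pairs there, by the values and not by a label. The main fits and the calls in the figures do not use this pairing. It entered only as an alternative fit with the replicate block, with which 0 of 9 members were called in the SOC at P0 vs E16. The libraries of set A carry the same replicate numbers at E16 and P0, and the part of the sets in these correlations was not tested. For P16, and in the cochlea, same-numbered libraries did not pair. No 2 libraries agreed within sampling noise. The members and lists were chosen with earlier results of these data known, as were the library sets, and the within-set ratios were added after seeing the data. All 9 members are named throughout. Alternatives were DESeq2 1.42.0, size factors by RLE, plain library totals, totals without the members, other filters and thresholds, a joint fit, SOC counts thinned to the cochlear depth, the set covariate, the replicate block and leaving out each library. Scripts were tested on simulated data. Counts of few reads and intervals cover counting error only.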

Additional observations from a re-analysis of the deposited data

Results flagged for a closer look

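Dixon's test was made on 36 combinations of a member and a group of 4 libraries, where chance alone gives about 1 in 20, and 9 were beyond the 95% limit. 5 of them were SOC P0 replicate 4, the library of set C at that age. It had 41.6 CPM of let-7b-5p (3.13 to 4.25 in the other P0 libraries), 42.2 of let-7c-5p (4.44 to 8.38), 1804 of let-7d-5p (714 to 839.5), 9.30 of let-7e-5p (3.13 to 3.66) and 90.7 of let-7i-5p (48.1 to 53.4). In SOC E16 replicate 1, let-7a-5p stood at 4.75 CPM against 0.0999 to 0.608, let-7f-5p at 2.58 against 0.347 to 0.700 and let-7g-5p at 14.2 against 8.64 to 9.39. In SOC E16 replicate 2, let-7b-5p stood at 1.85 CPM against 1.20 to 1.29, a difference of 24 counts against 12 to 22.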

How the results depend on the processing

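Over 59 single-member results, 1182 alternative values kept direction and side of the threshold, 38 passed it anew, 56 no longer passed it and 44 changed sign, none of the last for a change that was DE. let-7a-5p and let-7f-5p in the SOC had under 10 counts in some libraries and were left out by the filter of at least 10 counts in every library.

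In the joint fit of all libraries the count of members called was 0 in the cochlea at P0 vs E16 and at P16 vs P0, and 1 in the SOC at P0 vs E16. Without the overlap criterion it was 7 in the cochlea at P16 vs E16 and 5 at P16 vs P0. Leaving out single libraries gave 2 to 8 at P16 vs E16 in the cochlea, with 22.1% to 32.5% of all miRNAs called. At P16 vs P0 it gave 1 to 7 there (9.64% to 15.5%). In the SOC it gave 0 to 2 at P0 vs E16 (3.32% to 8.71%), 5 to 6 at P16 vs E16 (31.1% to 53.1%) and 0 to 6 at P16 vs P0 (9.81% to 35.9%). For the organ difference at P16 vs P0 it gave 0 to 1. In the SOC at P0 vs E16 the count was 0 with the replicate block (6.34% of all miRNAs called), without set A (0.00%) and with thinned counts. At P16 vs E16 it was 2 without set A (15.8%) and 2 with thinned counts. At P16 vs P0 it was 3 with DESeq2 and with at least 10 counts in every library. It was 0 there with library totals, with no filter, without set A (2.27%) and with thinned counts. The share of all miRNAs called moved with the setting as well. A count without that share beside it is not a result about the members. This applies to the counts above from the joint fit, without the overlap criterion, with thinned counts, with DESeq2, with library totals and with other filters. It also applies to the organ difference with single libraries left out. The shares for these settings are not given here.

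The sign of a log2 fold change turned as follows, and the cause was not tested. With library totals let-7g-5p was -0.22 in the cochlea and let-7i-5p 0.06 in the SOC at P0 vs E16. With the replicate block, which changed no call in the cochlea but that of let-7a-5p at P0, let-7g-5p was -0.09 (P0 vs E16) and let-7e-5p -0.08 (P16 vs E16) in the cochlea, and let-7a-5p 0.31 in the SOC at P0 vs E16. With the set as a term, SOC values at P0 vs E16 were 0.05 for let-7a-5p and -0.18 for let-7e-5p, at P16 vs E16 -0.20, -0.36 and -0.06 for let-7a-5p, let-7e-5p and let-7f-5p, and at P16 vs P0 -0.25 and -0.18 for let-7a-5p and let-7e-5p. The organ difference was then -0.87 and -0.45 for let-7b-5p and let-7c-5p at P0 vs E16, and -1.19, -0.90 and -0.63 for let-7b-5p, let-7c-5p and let-7d-5p at P16 vs E16. Without set A, let-7i-5p was 0.10 at P0 vs E16, let-7a-5p -0.35 and let-7f-5p -0.10 at P16 vs E16, let-7e-5p -0.02 at P16 vs P0, and the organ difference of let-7d-5p -0.04 at P16 vs E16. With thinned counts, let-7i-5p was 0.17 and miR-98-5p -3.15 at P0 vs E16 in the SOC, and the organ differences were -0.14 for let-7c-5p at P0 vs E16, and -0.53 for let-7c-5p and -0.38 for let-7d-5p at P16 vs E16.

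Leaving out single libraries gave -0.25 to 0.04 for miR-98-5p (P0 vs E16) and -0.41 to 0.15 for let-7e-5p (P16 vs P0) in the cochlea. In the SOC it gave -0.62 to 1.73 for let-7a-5p, -0.13 to 0.45 for let-7e-5p, -1.16 to 0.15 for let-7f-5p and -0.28 to 0.02 for let-7i-5p at P0 vs E16, and -0.01 to 0.88 for let-7e-5p at P16 vs P0. The organ difference ranged from -1.13 to 1.06 for let-7b-5p and -0.66 to 0.90 for let-7c-5p at P0 vs E16, and from -0.14 to 0.34 for let-7d-5p at P16 vs E16.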
